A study of Mus musculus with 8 samples.

Results

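Tetraspanins are small membrane proteins that cross the membrane 4 times, and 7 of them were followed here in microglia: Cd9, Cd63, Cd81, Cd82, Cd53, Cd37 and Cd151. They were taken by symbol from the estimated count table, where they are 7 of 51810 genes. All 7 passed the filter on low counts. The cells came from wild-type mice at 4 or 21 months of age, from white matter, the corpus callosum, or from grey matter, with 2 libraries in each of the 4 groups and the labels name no treatment or engineered allele. Because the region label reads corpus callosum for grey matter as well, the titles and the tissue label were used to divide the samples. Myelin was removed on Percoll, and cells were then taken with magnetic beads against CD11b, a protein that microglia share with other myeloid cells. Whether the libraries of 1 group are from different animals is not stated, so the p-values reflect only the spread among these samples, possibly a technical one.

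Tetraspanins bind one another and partner proteins, among them integrins and immunoglobulin superfamily proteins, and so gather these into patches of the membrane. Cd9, Cd63 and Cd81 are abundant on small extracellular vesicles. Cd63 sits mainly in late endosomes and lysosomes, while Cd53 and Cd37 are largely restricted to cells of the blood and immune system, microglia included.

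The libraries held 3273258 to 6315782 counts. One library, the first of 4-month white matter, was unlike the rest: across genes its correlation with any other was 0.652 to 0.756, against 0.832 to 0.962 among the other 7. The 2 most abundant transcripts, CT010467.1 and AY036118, held 25.6% and 13.1% of its counts. Elsewhere they held 4.65% to 13.8% and 2.13% to 6.85%, most in the first 4-month grey matter library. Over 16 oligodendrocyte markers it held 70629 CPM (counts scaled to a fixed library total), against 530.8 to 1320 elsewhere. Its 12 microglia markers summed to 3265 CPM, against 13012 to 19793, and none of the 12 was at 0 in any library. In bulk RNA, fewer cells of a type and less RNA per cell cannot be told apart. Values for 4-month white matter are therefore given with and without this library.

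The levels of the 7 genes spanned a wide range. Per kilobase of the longest protein-coding GENCODE transcript, the mean over the 7 libraries other than that one was 1071 CPM for Cd81, a surface tetraspanin found on many cell types. Cd53 followed at 256 CPM per kilobase, and its range of 214 to 380.4 did not reach the lowest value of Cd81, which was 838. Cd37 came next at 113 and Cd9 at 85.7 CPM per kilobase, but their ranges, 87.7 to 151 and 54.8 to 182, overlapped. Cd63, at 34.2, Cd151, at 25.7, and Cd82, at 24.3 CPM per kilobase, lay lowest, and these neighbours overlapped as well. The places of Cd9 and Cd63 in this order depend on how reads of near-identical copies are treated, as given next.

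Pseudogene copies held many of the counts of Cd9 and Cd63. Cd63-ps, a copy that the table lists as a gene of its own, aligned to 812 of the 1109 bases of the Cd63 transcript with 98.5% identity. It carried 74.9% to 81.5% of the counts of the pair in every library. Cd9-ps aligned to 664 of the 1228 bases of the Cd9 transcript with 90.7% identity and carried 42.6% to 48.1% of its pair. The sources used here do not say how reads were divided between gene and copy, so the levels of Cd9 and Cd63 alone are uncertain. With gene and copy summed, the means over the 7 libraries were 162 CPM per kilobase for Cd63, with a range of 103 to 297, and 158 for Cd9, with a range of 97.5 to 332. On that scale both means stood above that of Cd37, and the 3 ranges overlapped.

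**Figure D1:**
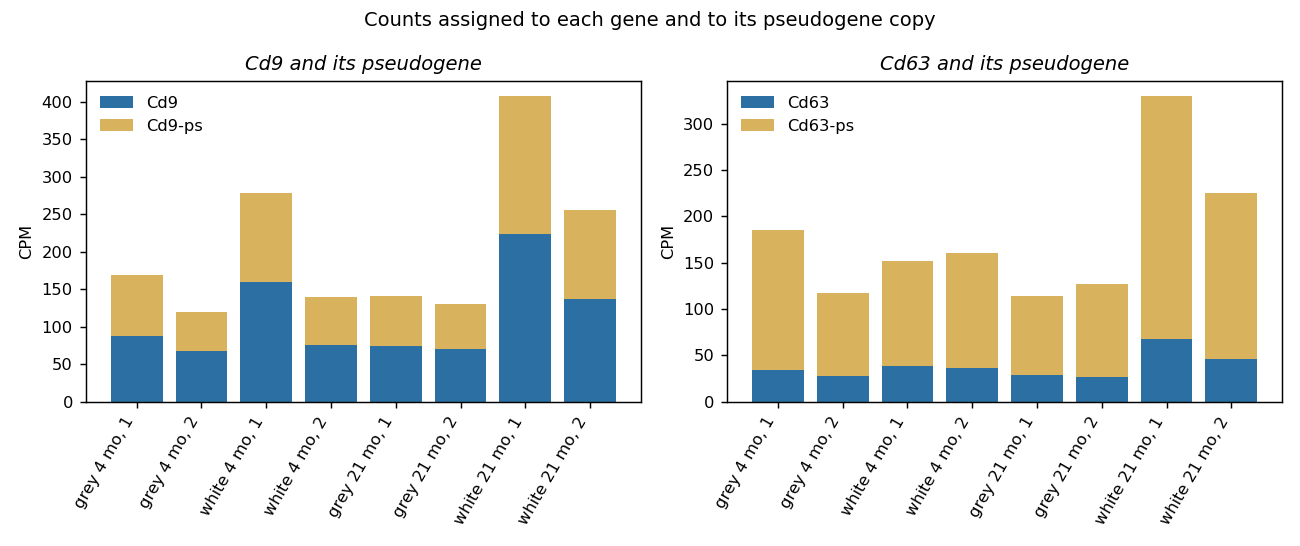
Estimated counts in CPM (vertical axis) on Cd9 and on Cd63 and on the pseudogene copy of each, stacked, in each of the 8 libraries (horizontal axis). The copy took 74.9% to 81.5% of the Cd63 pair and 42.6% to 48.1% of the Cd9 pair, and the summed bars are highest in the first 21-month white matter library.

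Cd9, a surface tetraspanin that takes part in cell fusion and adhesion, was higher in 21-month white matter than in any other group when the first 4-month white matter library was left aside. Its levels were 224 and 137 CPM in 21-month white matter. In 21-month grey matter they were 74.7 and 70.6 CPM. At 4 months they were 87.6 and 67.3 CPM in grey matter and 160 and 75.8 CPM in white matter, where the high value is the library that stood apart. Both 21-month white matter libraries lay above all grey matter libraries of either age and above the second 4-month white matter library, and the first of them lay above all others. Cd9-ps was likewise higher in both 21-month white matter libraries than in every grey matter library and the second 4-month white matter library. Gene and copy together came to 407 and 256 CPM in the white matter and to 141 and 130 CPM in the grey matter of that age.

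Cd63, an endosomal and lysosomal tetraspanin, showed the same separation at 21 months. In 21-month white matter it was at 67.2 and 45.7 CPM. The 21-month grey matter libraries held 28.5 and 26.8 CPM. The 4-month libraries held 34.2 and 27.1 CPM (grey matter) and 38.2 and 36.1 CPM (white matter). Both 21-month white matter libraries were thus above the other 6 libraries. The share of all genes with this order, or with that of Cd9, was not computed. With Cd63-ps added, the 21-month levels were 330 and 225 CPM in white matter, above 114 and 126 CPM in grey matter. The remaining summed levels were 185 and 117 CPM in 4-month grey matter and 152 and 161 CPM in 4-month white matter, so that the order of the groups held for the sums.

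**Figure D2:**
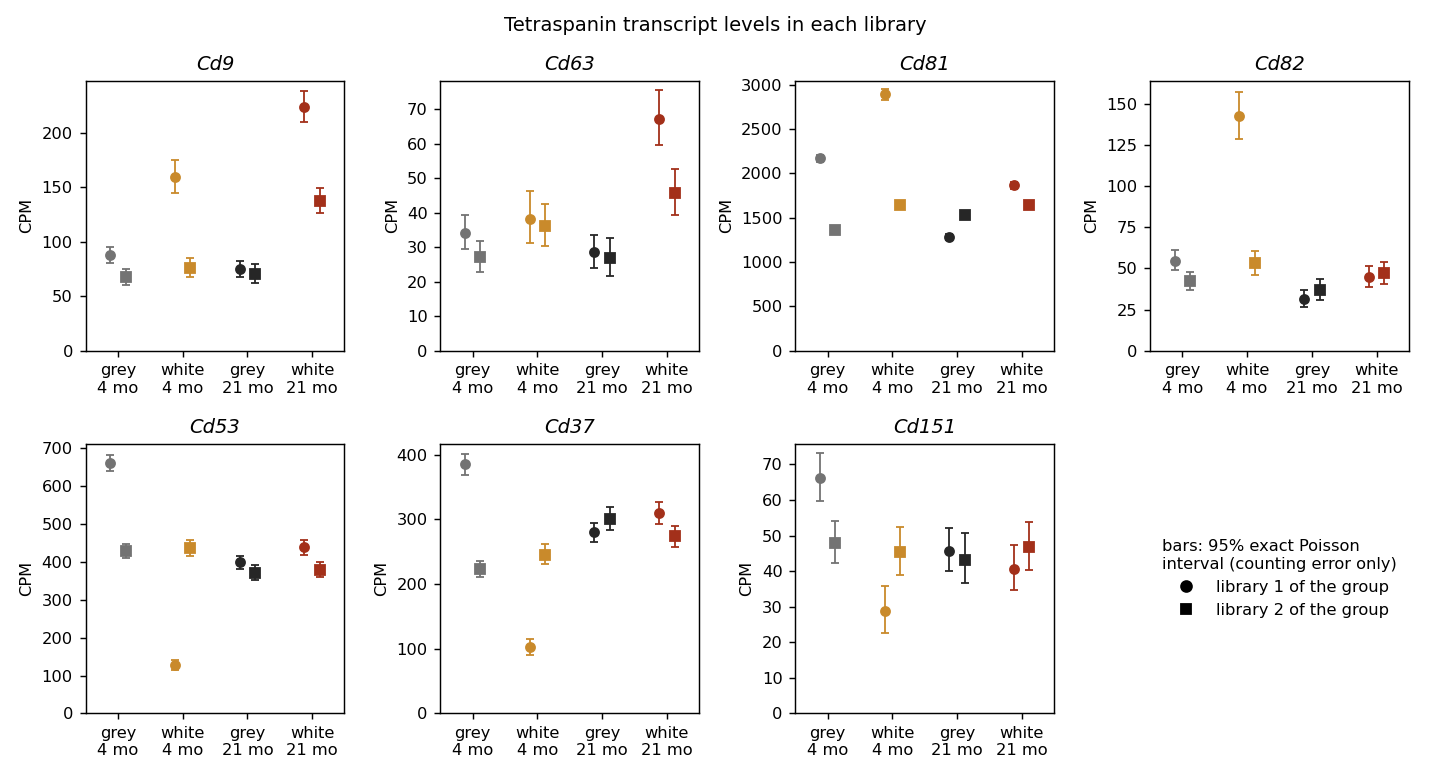
Level of each of the 7 tetraspanins in CPM (vertical axis, linear from 0) in every library, by region and age (horizontal axis); circles are library 1 and squares library 2 of a group, and bars are exact 95% Poisson intervals for counting error only. Cd63 sits highest in both 21-month white matter libraries, at 67.2 and 45.7 CPM. Cd9 is at 224 and 137 CPM there, with the first 4-month white matter library between them at 160 CPM, a place that depends on the TMM scaling.

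White against grey matter at 21 months was tested first with all 8 libraries in 1 fit. The log2 fold change of Cd9 was 1.31 ± 0.46 (SE; 95% interval 0.24 to 2.39) and that of Cd63 was 1.03 ± 0.34 (0.24 to 1.82). Neither passed the edgeR quasi-likelihood test, with adjusted p = 1.00 for both and unadjusted p of 0.0231 and 0.0173. In that fit 0 of the 7 tetraspanins and 0% of the 16237 genes tested were called at an adjusted p under 0.05, while 381 genes had an unadjusted p under that value. DESeq2 called 0.361% of its genes and limma voom with sample weights 0.758%, which included Cd9 for voom (adjusted p = 0.0399) and no tetraspanin for DESeq2.

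The 4 libraries of 21-month mice were also fitted alone. Their common dispersion was 0.0503, against 0.257 for all 8. That fit called 1.58% of 14717 genes and 1 of the 7 tetraspanins. Cd9 was higher in white matter by 1.30 ± 0.24 on the log2 scale (edgeR adjusted p = 0.0292), and Cd63 differed by 1.02 ± 0.24 (edgeR adjusted p = 0.0712), short of the threshold. The gene and copy of each pair, summed, were both called: Cd9 by 1.28 ± 0.23 (edgeR adjusted p = 0.0267) and Cd63 by 1.20 ± 0.20 (edgeR adjusted p = 0.0176). That summed fit, chosen after the split of reads was seen, called 1.57% of genes. The call for Cd9 in the 21-month libraries was lost without either grey matter library, at edgeR adjusted p = 0.306 and 0.24, with log2 fold changes of 1.34 and 1.26 and with 0.539% and 0.886% of genes called. Without the first white matter library the change of Cd9 was 0.89 (edgeR adjusted p = 0.0186, 2.88% of genes called), and without the second it was 1.61 (edgeR adjusted p = 0.000482, 2.59% of genes called), where Cd63 was called too, at 1.27 (edgeR adjusted p = 0.00983). Each of these 4 fits leaves 1 library alone in its group, which is assumed to vary like the pair of the other region, so the calls among them add no support. In the fit of 7 libraries, with the one that stood apart left aside, neither was called (edgeR adjusted p = 0.19 for Cd9 and 0.374 for Cd63), and 0.109% of genes were. With the other library of its group left aside instead, 0.0896% of genes were called and again no tetraspanin; with no filter on low counts the share was 0.447%, also with none of the 7.

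Markers of other cells moved between the same 21-month libraries. The 12 neutrophil markers summed to 2997 and 2705 CPM in grey matter and to 998 and 557 in white matter, with at most 1 of them at 0 in a library. The 12 border-associated macrophage markers summed to 794 and 885 CPM in grey matter and to 381 and 518 in white matter. Oligodendrocyte markers went the other way, with 553 and 771 CPM in grey and 922 and 957 in white matter, and 1 of the 16 at 0 in each. The 12 ependymal and choroid plexus markers stood at 9721 CPM in the second 21-month white matter library, against 283 to 374 in the other 3 of that age. That library held the lower Cd9 and Cd63 of the pair. The 12 microglia markers summed to 13012 and 15591 CPM in grey and to 13049 and 13140 in white matter. Their part in the results was not tested.

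Cd81 and Cd82, a tetraspanin first described as a suppressor of metastasis, were also without overlap at 21 months. In white matter Cd81 had 1862 and 1641 CPM, in grey matter 1284 and 1531. For Cd82 the white matter values were 44.7 and 46.9 CPM, the grey matter values 31.5 and 36.8. Together with Cd9 and Cd63, 4 of the 7 were higher without overlap, beside 20.9% of all genes, and 0 were lower without overlap, beside 19.5%. The differences of Cd81 and Cd82 were small and not called: 0.31 (95% interval -0.09 to 0.70) and 0.42 (-0.03 to 0.86) in the 21-month libraries alone, with edgeR adjusted p = 0.597 and 0.497.

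Cd53 and Cd37, the leukocyte tetraspanins, had nearly the same level in both regions at 21 months. White matter held Cd53 at 439 and 379.7 CPM, grey matter at 399 and 372. Cd37 was measured at 310 and 274 CPM in white matter, next to 280 and 301 CPM in grey matter, so that the groups of both genes overlapped. In the 21-month libraries alone the difference of Cd53 was 0.08 with a 95% interval of -0.29 to 0.44. For Cd37 the interval was -0.36 to 0.35. Differences of the size seen for Cd9, 1.30, lie outside both of these intervals. In the fit of all 8 libraries the intervals were wider. That of Cd53, -1.31 to 1.48, holds 1.30, and that of Cd37 was -1.18 to 1.20.

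Cd151, which binds laminin-binding integrins, held 40.7 and 46.7 CPM in 21-month white matter, next to 45.7 and 43.3 CPM in grey matter. The groups overlapped, and its difference in the 21-month libraries alone was -0.04, with a 95% interval of -0.47 to 0.39. Cd151 shares 192 bases of identical sequence with Gm10575, which held 61 counts over all libraries. In the fit of all 8 libraries 6 of the 7 tetraspanins lay above 0 at 21 months, with a median of 0.32, beside 51.7% of all genes and a median of 0.02.

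**Figure D3:**
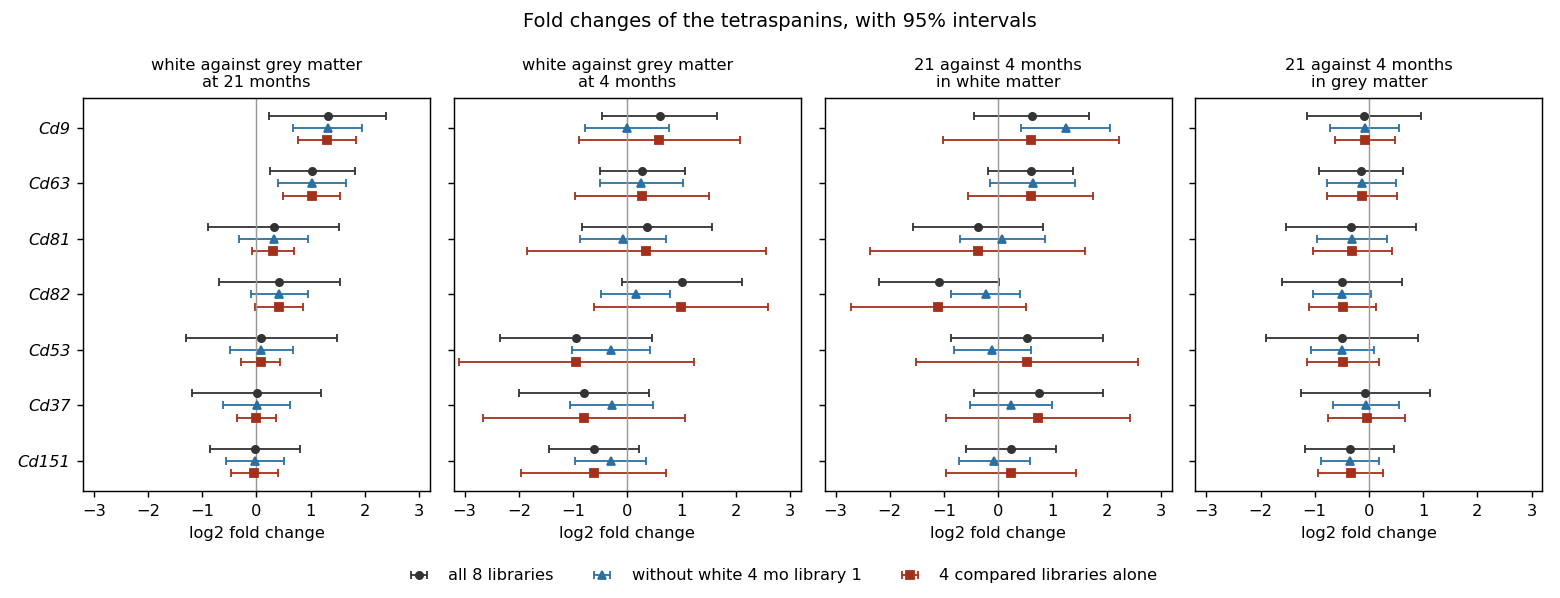
Log2 fold change of each tetraspanin (points) with its 95% interval (bars) in the 4 comparisons of a pair of groups, from the fit of all 8 libraries, from the 7 that remain once the library that stood apart is dropped and from the 4 compared libraries alone. At 21 months Cd9 lies at 1.31 or 1.30 and Cd63 at 1.03 or 1.02 in these fits, and the intervals there are narrower in the fits without it.

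Counts per 100 counts of Cd53, which the library scaling does not touch, were set beside the levels in CPM. Cd9 held 51.0 and 36.1 in 21-month white matter. In 21-month grey matter it held 18.7 and 18.9, and the 4-month libraries held 13.2 and 15.7 in grey and 125 and 17.3 in white matter. Cd63 per 100 Cd53 counts was 15.3 and 12 in the white matter of that age and 7.15 and 7.20 in its grey matter. At 4 months it was 5.16 and 6.31 in grey and 29.8 and 8.27 in white matter. For both genes the library that stood apart was the highest of the 8, where Cd53 was low, and the 21-month white matter libraries lay above the other 5. Cd37, by contrast, held 70.5 and 72.1 there in white matter, next to 70.2 and 80.9 in grey matter. In the first 4-month white matter library the ratio of Cd81 was 2259 per 100 Cd53 counts, against 318 to 432 in the other 7.

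At 4 months white and grey matter were not separated by any tetraspanin call. In the fit of all 8 libraries edgeR called 0 of the 7 and 0% of genes, with 1446 genes at an unadjusted p under 0.05, and with no filter on low counts 0 of the 7 and 3.39% of genes. Limma voom called 0% of genes, and DESeq2 3.51%, with no tetraspanin among them. The largest differences were 1.01 ± 0.47 for Cd82 (edgeR adjusted p = 0.592) and -0.95 ± 0.60 for Cd53 (edgeR adjusted p = 0.698). Both rested on the library that stood apart. Cd82 was at 142 CPM there and at 53.2 CPM in its partner, against 54.8 and 42.1 in grey matter. Cd53 was at 128 CPM there and at 437 in its partner, against 663 and 429 in grey matter. The second 4-month white matter library held 5746 CPM of the 12 ependymal and choroid plexus markers and the first 2157, against 189 and 32.7 in 4-month grey matter. Their part was not tested. A fit without the library that stood apart leaves 1 library for 4-month white matter. Without it the differences were 0.16 and -0.30, and that of Cd9 was -0.01 ± 0.34, none of them called and 0% of genes called. Without its partner, so that this library stood alone for its group, Cd82 (1.52, edgeR adjusted p = 0.00436), Cd53 (-2.12, edgeR adjusted p = 0.00374) and Cd37 (-1.60, edgeR adjusted p = 0.0154) were called, as were 23.6% of genes.

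Groups without overlap at 4 months held 1 of the 7 in each direction. Cd63 was higher in white matter, beside 13.4% of all genes. This depends on the TMM scaling. The first white matter library held 105 counts of Cd63 in a total of 4475574, the second grey matter library 148 in 4987199. With Cd63-ps added the groups overlapped, at 152 and 161 CPM in white and 185 and 117 CPM in grey matter. Cd151 was lower, at 28.7 and 45.4 CPM in white and 66.3 and 47.9 in grey matter, beside 15.5% of all genes.

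With age, white matter showed no tetraspanin call either. The fit of all 8 libraries gave 0.62 ± 0.45 for Cd9 and 0.60 ± 0.34 for Cd63 for 21 against 4 months, with edgeR adjusted p = 0.707 and 0.64. Again 0 of the 7 and 0% of genes were called, with 1316 genes at an unadjusted p under 0.05, and with no filter 0 of the 7 and 2.93% of genes. Limma voom called 0% of genes, and DESeq2 2.57%, again with none of the 7. Cd82, at -1.09 ± 0.48, was the largest change in size and was -0.23 once the library that stood apart was left aside. Leaving that library out gave Cd9 a change of 1.24 ± 0.36 (unadjusted p = 0.00744, edgeR adjusted p = 1.00), with 0.00571% of genes called, and Cd63 one of 0.63 ± 0.34. Without the other 4-month white matter library Cd82 (-1.61, edgeR adjusted p = 0.00351), Cd53 (1.70, edgeR adjusted p = 0.00902) and Cd37 (1.54, edgeR adjusted p = 0.0179) were called, with 25.1% of genes. Cd63 and Cd37 were higher at 21 months without overlap, beside 19.8% of genes, and Cd82 was lower without overlap, beside 15.4%. The fit without the library that stood apart leaves 1 library for 4-month white matter. That one held 5746 CPM of ependymal and choroid plexus markers, against 321 and 9721 in 21-month white matter, and their part was not tested.

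In grey matter all 7 tetraspanins had lower means at 21 than at 4 months, and none passed the test. The log2 changes ran from -0.50 for Cd82 to -0.07 for Cd37, with a median of -0.33. The background is 48.6% of all genes above 0 and a median of -0.02. The fit of all 8 libraries called 0 of the 7 and 0% of genes with edgeR, with 119 genes at an unadjusted p under 0.05, and 0% with voom and with DESeq2. With no filter it was 0 of the 7 and 0.0517% of genes. Cd9, at -0.09 ± 0.45, and Cd63, at -0.15 ± 0.33, were close to 0. Cd82, Cd53 and Cd151 did not overlap between the ages, beside 17.3% of genes lower without overlap, and none was higher, beside 17.2%. The first 4-month grey matter library held the highest level of its group for each of the 7, for example 663 against 429 CPM for Cd53, 385 against 223 for Cd37 and 2167 against 1363 for Cd81. Without it, 4 of the 7 turned to above 0: Cd37 (0.38), Cd9 (0.10), Cd81 (0.041) and Cd63 (0.026). That library also held 26091 CPM of red blood cell markers (7 of the 8 listed are in the table), against 1197 in its partner and 2641 and 720 in 21-month grey matter. Its 12 neutrophil markers summed to 5474 CPM, against 2788 in its partner, and its 11 pericyte and smooth muscle markers to 156, against 981. None of these markers was at 0 in a grey matter library, and their part in the changes was not tested.

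The difference between the 2 aging changes, white minus grey matter, was 0.71 ± 0.64 for Cd9 and 0.75 ± 0.47 for Cd63 with all 8 libraries. Neither was called, nor was any of the 7 or any gene (0%) by edgeR, with 455 genes at an unadjusted p under 0.05. With no filter 1.43% of genes were called and again none of the 7. Voom called 0% and DESeq2 0.383% of genes, with no tetraspanin. Without the first 4-month white matter library, which leaves 1 library in that group, the values were 1.33 ± 0.45 for Cd9 and 0.77 ± 0.44 for Cd63. Without the second, Cd53 was called, at 2.21 (edgeR adjusted p = 0.0123), with 13.6% of genes. These comparisons share groups with one another, so their values are not independent.

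The start regions of 4 of the genes are shown because Cd9 and Cd63 were the pair highest in 21-month white matter, whereas Cd53 and Cd37 overlapped between the regions at that age. Each window runs from 250 bases before to 50 after the RefSeq start on GRCm38.p6, 5′ to 3′ on the strand of the gene. Capitals mark matches, on either strand, to 6 motifs: the E box CACGTG, the AP-1 site TGACTCA, GAGGAAGT (which holds the GGAA core read by ETS factors such as PU.1), the CCAAT box, the GC box GGGCGG and the TATA box TATAAA.
Cd9 (chr6:125494711-125495010, minus strand): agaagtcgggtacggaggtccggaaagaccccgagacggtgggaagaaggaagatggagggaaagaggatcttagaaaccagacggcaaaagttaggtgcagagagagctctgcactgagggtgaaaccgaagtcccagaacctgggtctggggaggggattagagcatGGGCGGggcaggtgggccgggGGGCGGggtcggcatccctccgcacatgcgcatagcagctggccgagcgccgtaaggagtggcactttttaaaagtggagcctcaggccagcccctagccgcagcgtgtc
Cd63 (chr10:128909095-128909394, plus strand): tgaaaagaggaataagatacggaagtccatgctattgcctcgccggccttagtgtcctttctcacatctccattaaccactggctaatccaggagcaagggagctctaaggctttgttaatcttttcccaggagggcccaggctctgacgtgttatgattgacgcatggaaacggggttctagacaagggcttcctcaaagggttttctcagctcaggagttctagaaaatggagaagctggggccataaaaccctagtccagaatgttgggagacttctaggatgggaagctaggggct
Cd53 (chr3:106790100-106790399, minus strand): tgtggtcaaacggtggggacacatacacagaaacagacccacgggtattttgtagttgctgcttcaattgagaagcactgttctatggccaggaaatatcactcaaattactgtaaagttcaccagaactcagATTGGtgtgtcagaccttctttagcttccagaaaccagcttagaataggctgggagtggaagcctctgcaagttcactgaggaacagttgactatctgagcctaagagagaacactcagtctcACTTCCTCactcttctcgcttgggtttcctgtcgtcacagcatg
Cd37 (chr7:45238790-45239089, minus strand): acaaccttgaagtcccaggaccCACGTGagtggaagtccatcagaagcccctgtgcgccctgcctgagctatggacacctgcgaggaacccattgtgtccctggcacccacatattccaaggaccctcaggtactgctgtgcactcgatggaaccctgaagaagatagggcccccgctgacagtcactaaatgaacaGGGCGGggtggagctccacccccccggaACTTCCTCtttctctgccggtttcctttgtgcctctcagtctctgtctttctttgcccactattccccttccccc
The Cd9 window held 2 matches to GGGCGG and the Cd63 window none of the 6 motifs. The Cd53 window held GAGGAAGT and CCAAT, both on the reverse strand. The Cd37 window held CACGTG, which reads the same on both strands, GGGCGG, and GAGGAAGT on the reverse strand. No matches overlapped one another. Of all 32851 windows in the RefSeq table, 3.2% held GAGGAAGT, 7.15% CACGTG, 5.2% TGACTCA, 37.4% CCAAT, 35.7% GGGCGG and 13.6% TATAAA. The matches describe these letters only.

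Among 24 other tetraspanins, 17 were tested in the fit of all 8 libraries and 15 with the 21-month libraries alone, where 1 was called, beside 1.58% of all genes in that fit. Upk1b, named for the uroplakins of the bladder lining, was lower in white than in grey matter at 21 months. White matter held 26.7 and 40.0 CPM, grey matter 87.5 and 91.8, a change of -1.44 ± 0.21 (edgeR adjusted p = 0.00844). At 4 months white matter held 6.90 and 23.1 CPM, grey matter 60.7 and 51.0, so that all 4 white matter libraries lay below all 4 of grey matter. The level of 6.90 CPM was in the library that stood apart, where microglia markers were low. The share of all genes with such a separation was not computed. With all 8 libraries the 21-month change was -1.43 and not called (edgeR adjusted p = 1.00). Tspan14, which helps the protease ADAM10 mature, had the highest mean of the 24, at 110.0 CPM over the 7 libraries, followed by Tspan31 at 80.7. Per kilobase of transcript the order of these genes was reversed, with 51.8 for Tspan31 and 44.4 for Tspan14. Neither was called at 21 months (-0.19 and 0.28, edgeR adjusted p = 0.793 and 0.647).

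Many tetraspanins had their highest or lowest level in the first 4-month white matter library. Of the 17 other tetraspanins tested, 8 were higher there than in any other library and 8 lower. The share of all genes placed in this way was not computed, so these counts do not set the family apart from other genes. Tspan2, a tetraspanin of oligodendrocytes, reached 1822 CPM, against 10.6 to 42.4 elsewhere. Tspan15, Tspan5 and Tspan17 reached 90.1, 165 and 32.7 CPM, against at most 2.51, 22.9 and 4.26. The choice of these 4 was made with their values in view. Of the 7 tetraspanins followed here, Cd81 and Cd82 were highest there and Cd53, Cd37 and Cd151 lowest, while Cd9 and Cd63 lay within the range of the other libraries. These places are in TMM-scaled CPM, and those of Cd81 and Cd63 depend on that scaling.

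**Figure D4:**
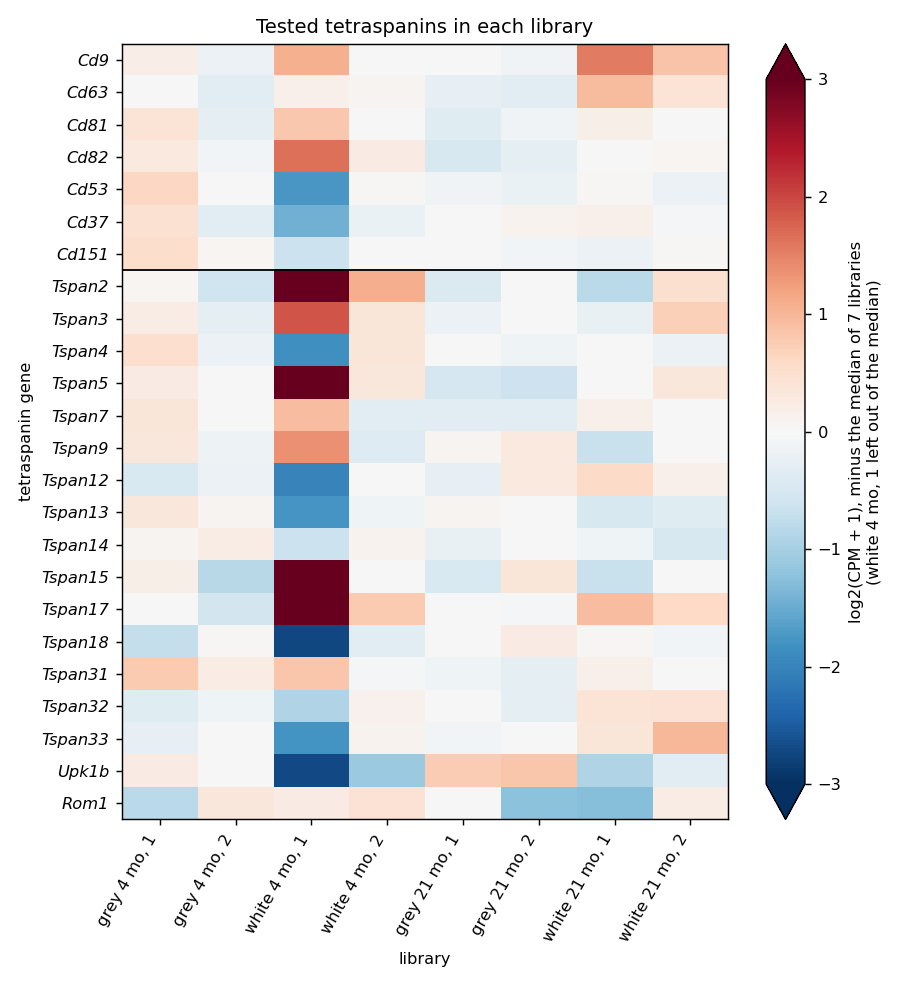
Log2 of CPM + 1 of the tested tetraspanins, minus each gene's median over the 7 libraries other than the first of 4-month white matter (colour scale, which ends at -3 and 3), with genes as rows and the 8 libraries as columns. In the first 4-month white matter library 8 of 17 other tetraspanins are above all other libraries and 8 below, and Upk1b is lower in all 4 white than in all 4 grey matter libraries. The shares of all genes placed in these ways were not computed.

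Partners of tetraspanins at the membrane were followed through 24 genes, integrins and immunoglobulin superfamily proteins among them. With the 21-month libraries alone 19 were tested, of which 2 rose and 1 fell in white matter, beside 1.58% of all genes called in either direction, and with all 8 libraries 0 of 21 were called. Ptgfrn, a direct partner of Cd9 and Cd81, had 65.0 and 70.3 CPM in white matter, next to 28.5 and 34.1 CPM in grey matter, a change of 1.11 ± 0.19 (edgeR adjusted p = 0.0187). Itga5, the alpha chain of the fibronectin receptor, had 118 and 69.8 CPM in white matter, next to 39.8 and 32.1 CPM in grey matter, a change of 1.37 ± 0.27 (edgeR adjusted p = 0.0472). Itgal, the alpha chain of the leukocyte integrin LFA-1, had 22 and 18.4 CPM in white matter, next to 68.7 and 47.5 CPM in grey matter, a change of -1.54 ± 0.25 (edgeR adjusted p = 0.0127). The neutrophil markers given above moved in the same direction as Itgal, and monocyte markers did so too, with 219 and 182 CPM (white matter) and 628 and 461 CPM (grey matter); their part was not tested.

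Genes of vesicle formation and multivesicular bodies, in which Cd63 and Cd81 are carried, gave no call at 21 months. Of 29 listed, 24 were tested with the 21-month libraries alone and 0 were called by edgeR, as with all 8 libraries. Their median change was -0.03, with 11 above and 13 below 0, beside a median of 0.01 over all genes.

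The pattern of each tetraspanin over the 7 libraries was set beside that of 8897 genes whose mean count reached 50, by the root mean square difference of log2 CPM around each gene's own mean. Nearest to Cd9 was Cd9-ps (0.07), and Gch1 (0.15) was also among its 3 nearest, an enzyme of tetrahydrobiopterin synthesis. Nearest to Cd63 were Tmbim1 (0.09), Osm (0.11), which encodes the cytokine oncostatin M, and Cd34 (0.11). Cd9 and Cd63 differed from each other by 0.20, and were each other's nearest among the 7. Cd9 differed from Cd53 by 0.65. Nearest to Cd53 were Tsr2 (0.04), Evl (0.04) and Ube2d2a (0.05), and nearest to Cd37 Tagln2 (0.07), Ptpa (0.07) and Rps13-ps1 (0.09). For Cd81 these were Tapbp (0.05), Hspa9-ps1 (0.07) and Gosr2 (0.07), for Cd82 Prpsap1 (0.10), Gna12 (0.11) and Pros1 (0.11), and for Cd151 Uba3 (0.07), Parp10 (0.07) and Fgfr1op2 (0.07). All of these values come from the same 7 libraries and describe likeness only. With the library that stood apart added, Cd9-ps stayed nearest to Cd9 (0.09), and Sod2 (0.14) became the nearest to Cd63, and Cd63-ps was among its 3 nearest (0.19).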

How the data were processed

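RNA was measured in 8 libraries of CD11b-selected microglia. The authors deposited estimated counts per gene. Partek and DESeq2 are named without role or version, per the submitters' processing notes; the sources used here do not give aligner, build, annotation or strand use. Between 15.9% and 17.8% of a library's values above 0 were not whole, within 1e-06. Counts were rounded, filtered with filterByExpr (16237 genes left), TMM-scaled and fitted as 4 group means with edgeR 4.0.16 (quasi-likelihood, robust) in R 4.3.3, with 4 residual degrees of freedom. The threshold for a call was a p under 0.05 after Benjamini-Hochberg adjustment over all tested genes. With 2 against 2 libraries a two-sided exact permutation p cannot go under 0.333, so no such test was used.

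Alternatives were fits of the compared libraries alone, a replicate block, other scalings, no filter, leaving out each library, limma 3.58.1 voom and DESeq2 1.42.0. The summed copies, found with blastn 2.17.0 (at least 90% identity over 100 bases of GENCODE M21 transcripts), were added after the data were seen. The members, lists and alternatives were chosen with earlier results of these data known. Named are the 7 members, other tetraspanins called or among the 3 most abundant, up to 4 called partner or vesicle genes and the 3 genes nearest in pattern, of which 1 is not reported here. The model was tested on simulated data, and the outcome is not given here. The simulation held no library of a different cell make-up, so it does not cover the library that stood apart. The normalised table was not used, and no protein sequence is printed. Same-numbered libraries did not deviate together in every pair of groups.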

Additional observations from a re-analysis of the deposited data

How the results depend on the processing

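Of 672 values recomputed under other settings, 634 kept their direction and 38 changed sign; none of the 38 was called. The number of the 7 called for white against grey matter at 21 months was 0 with all 8 libraries and 1 with the compared libraries alone, 1 with voom, and 2 with the copies summed or with the replicate block in the compared libraries alone. The block there called 3.55% of genes and, besides Cd9 (1.27, adjusted p = 0.00056), Cd63 (1.00, edgeR adjusted p = 0.0128). Leaving out single libraries gave 0 to 2, with 0.539% to 2.88% of genes called in the 21-month libraries alone. Those ranges were 0 to 3 at 4 months, 0 to 3 for aging in white matter and 0 to 1 for the difference between aging changes, which has no fit of compared libraries alone. With the replicate block and all 8 libraries 0 of the 7 were called, with 1.25 for Cd9 and 1.01 for Cd63 at 21 months. Deviations of same-numbered libraries correlated at 0.415 between regions at 4 months and 0.0561 at 21 months. Between the ages they correlated at -0.0251 in white and -0.0977 in grey matter, which does not bear on pairing of regions within an age. The numbers were not taken to pair libraries, and whether regions were paired at 4 months is not settled by these values. With no filter 0 of the 7 were called in any comparison, and 0.447% of genes at 21 months, 3.39% at 4 months, 2.93% for aging in white matter, 0.0517% in grey matter and 1.43% for the difference.

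Cd37 at 21 months was 0.01, and -0.0098 with RLE scaling, -0.0098 with DESeq2, -0.0022 in the compared libraries alone, -0.0023 there with copies summed and -0.0046 there with the replicate block; it was 0.0011 in that block for grey matter aging. With copies summed in the 7 libraries that exclude the one standing apart, Cd9 was -0.025 and Cd81 -0.081 at 4 months. In that fit Cd81 was 0.080, Cd53 -0.11 and Cd151 -0.070 for white matter aging. Cd81 was 0.40 and Cd82 0.27 in it for the difference between aging changes. With all 8 libraries, no filter and copies not summed, Cd81 was 0.038 for that difference. Leaving out single libraries gave, at 21 months, -0.11 to 0.10 for Cd37, -0.050 to 0.19 for Cd53 and -0.12 to 0.040 for Cd151 (in the 21-month libraries alone, -0.11 to 0.09 for Cd37, with -0.057 without the first grey matter library, -0.047 to 0.18 for Cd53, and -0.14 to 0.042 for Cd151, with 0.00033 without the first grey matter library); at 4 months, -0.012 to 1.01 for Cd9 and -0.081 to 0.71 for Cd81; for white matter aging, -0.70 to 0.080 for Cd81, -0.11 to 1.70 for Cd53 and -0.070 to 0.63 for Cd151; for grey matter aging, -0.27 to 0.10 for Cd9, -0.30 to 0.026 for Cd63, -0.62 to 0.041 for Cd81 and -0.41 to 0.38 for Cd37; and for the difference, -0.40 to 0.40 for Cd81 and -1.10 to 0.27 for Cd82. Other than the library left out, the cause was not tested. Cd63 alone held 96 to 284 counts a library, which limits its precision.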
